A study of Oryza sativa with 9 samples.

Results

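The comparison described here set 3 libraries labelled osdreb2b against 3 libraries labelled WT, out of 9 RNA-seq libraries of chilled rice shoots in the series. The osdreb2b libraries carry a genotype label of an osdreb2b knockout in the ZH11 background, ZH11 being a japonica cultivar, and the WT libraries are ZH11 itself. All 6 came from shoots of seedlings with 4 leaves, kept at 4 °C for 2 d. Cold is therefore shared by both groups, and every difference below is one between genotypes in the cold, not a response to cold. How the mutation was made, the number of lines, the number of plants in a library and whether replicates are separate plants or pools are not given in the labels. The p-values accordingly measure the spread between these samples, which may be technical. Another group, the ossro1c mutant, entered the statistical model, and its values are given beside those of osdreb2b in a few places. Of 55801 loci in the count table, 26112 passed the filter on low counts and were tested, and these held from 99.97% to 99.98% of the counts of each of the 6 libraries. Totals were 67192793, 61157501 and 67376150 counts in osdreb2b replicates 1 to 3, against 64681976, 62942994 and 64783631 counts in WT. Levels below are CPM, that is counts relative to library size after TMM scaling, and they compare libraries for a given locus and not loci with each other. Loci carry identifiers of the LOC_Os form, whose first digits give the chromosome.

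DREB proteins are AP2/ERF transcription factors that bind the dehydration-responsive element in promoters. The DREB1 (CBF) class is best known for its induction by chilling, and the DREB2 class for drought, salt and heat, where in rice OsDREB2B is made as more than one splice form. Chilled rice leaves are also known to lose chlorophyll and photosynthetic transcripts while chaperone, dehydrin and abscisic acid genes respond. The design of the series names OsSRO1c, a plant SRO protein of the family that carries a PARP-like catalytic domain, as the partner of OsDREB2B, and COLD1, a membrane protein acting with the G protein alpha subunit RGA1, as a target.

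The transcript that the mutant is named for was present in it, and at a higher level than in WT. OsDREB2B (LOC_Os05g27930) stood at 319, 299 and 314 CPM in libraries labelled osdreb2b, against 168, 166 and 173 CPM in WT. Every osdreb2b library lay above every WT library, and the mean was 183.6% of that of WT (log2 fold change 0.88, standard error (SE) 0.09, adjusted p = 1.7e-06; exact permutation p = 0.1, the smallest that 3 libraries against 3 allow). In the libraries labelled ossro1c it averaged 68.8 ± 9.96 CPM (SD, n = 3), or 40.7% of the WT mean, and was thus lower there than in osdreb2b (osdreb2b minus ossro1c 2.18, adjusted p = 5.4e-10). A count over the whole locus does not show whether a transcript is intact. OsSRO1c, the other gene of the complex, had 129, 134 and 138 CPM in osdreb2b, against 2078, 2024 and 2044 CPM in WT, or 6.52% of the WT mean. The ossro1c libraries held more of it, 415 ± 36.2 CPM or 20.3% of the WT mean (osdreb2b minus ossro1c -1.63, adjusted p = 6.7e-10). Between the mutant groups, each thus had the lower level of the gene the other is named for. A mutation that leaves its transcript in place and an exchange of the mutant labels cannot be told apart from these counts, so "osdreb2b" below names only the libraries that carry this label, and every direction given is that of those libraries. The OsSRO1c locus, LOC_Os03g12820, is paired with this name from published knowledge, the name being absent from the reference table used here. The largest fold difference among the 5 study genes was thus that of OsSRO1c and not that of OsDREB2B (log2 fold change -3.94, SE 0.08, adjusted p = 5e-13). OsDREB2A (LOC_Os01g07120), the paralog of OsDREB2B, had 8.03, 9.31 and 9.02 CPM in osdreb2b, against 51.5, 52.2 and 45.7 CPM in WT (-2.50, SE 0.13, adjusted p = 1.1e-09). Both members of the DREB2 pair therefore passed the threshold, in opposite directions.

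COLD1 (LOC_Os04g51180) had 31.3, 32.8 and 32.5 CPM in osdreb2b, against 52.5, 50.2 and 51.6 CPM in WT, and RGA1 (LOC_Os05g26890) had 26.9, 28.6 and 28.8 CPM in osdreb2b, against 38.3, 39.6 and 42.04 CPM in WT. Neither gene's groups overlapped (COLD1 -0.68, SE 0.08, adjusted p = 4.5e-06; RGA1 -0.51, SE 0.08, adjusted p = 0.00013). For RGB1 (LOC_Os03g46650), the G protein beta subunit, the osdreb2b libraries held 40.3, 43.6 and 45.1 CPM and the WT libraries 47.6, 51.5 and 50.4 CPM. This difference passed narrowly (-0.21, SE 0.08, adjusted p = 0.036), and not under raw library totals, upper-quartile scaling, the fit with no filter or the fit with the replicate number as a block (adjusted p = 0.48, 0.32, 0.051 and 0.054). Without osdreb2b replicate 1 or 2, or WT replicate 2 or 3, it did not pass either (adjusted p from 0.072 to 0.14). Between the mutant groups COLD1 differed by 0.10 (adjusted p = 0.32), RGA1 by 0.15 (adjusted p = 0.16) and RGB1 by -0.07 (adjusted p = 0.48), none past the threshold, whereas OsDREB2A was lower in osdreb2b than in ossro1c by -1.01 (adjusted p = 1.3e-05).

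**Figure D1:**
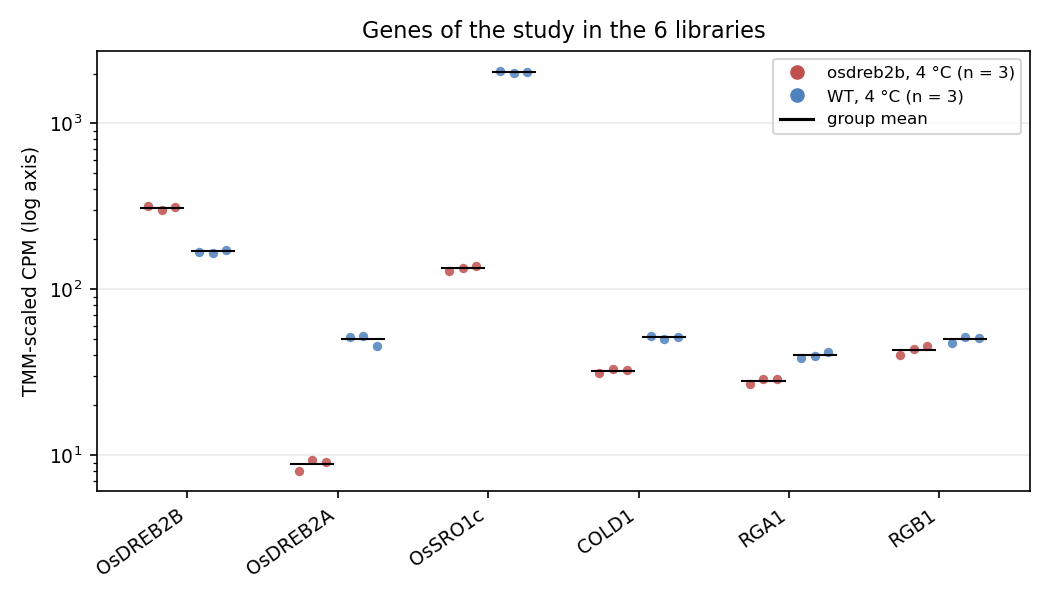
Level of 6 genes in each library, as TMM-scaled CPM on a log axis; points are libraries, osdreb2b left of WT, and bars are group means (n = 3 each). OsDREB2B stands higher in osdreb2b (mean 311 CPM, against 169 CPM in WT), while OsDREB2A, OsSRO1c, COLD1, RGA1 and RGB1 stand lower.

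The shoot label was checked against markers of leaf mesophyll and of other tissues. RBCS2 (LOC_Os12g17600), a Rubisco small subunit gene, took the most counts of any locus in all 6 libraries, from 1.20% to 1.24% of counts in osdreb2b and from 0.587% to 0.607% in WT. Of the root markers, LSI1, a silicon transporter, stood at 8.49, 10.4 and 11.8 CPM in osdreb2b, against 2.82, 2.18 and 2.26 CPM in WT, and LSI2 was at 0 counts in all 6 libraries. LSI1 passed the threshold (log2 fold change 2.08). A further listed root locus, whose name is not in the reference table, was also higher without overlap (2.21) but did not pass. It was very low, as adding it moved the summed root list only from 10.2 to 10.4 CPM in osdreb2b and from 2.42 to 2.47 CPM in WT. The root marker NRT2.1 had 7, 0 and 0 counts in osdreb2b and 0 in WT, and was not tested. The iron transporter gene IRT1 averaged 0.119 CPM in osdreb2b and 0.295 CPM in WT. The 2 glutelin genes that were tested as endosperm markers, GLUA1 and GLUA2, summed to 4.76 to 6.49 CPM in osdreb2b and 4.10 to 7.16 CPM in WT. Both passed narrowly and in opposite directions, GLUA1 at -1.07 (adjusted p = 0.034) and GLUA2 at 0.54 (adjusted p = 0.036), and either call was lost when 1 of several osdreb2b or WT libraries was left out (adjusted p from 0.077 to 0.15). The sum of the 9 cell division genes tested ran from 53.6 to 61.8 CPM in osdreb2b and from 31.5 to 33.6 CPM in WT. Most of that difference was CDKB2-1, at 27.3 CPM in osdreb2b and 7.49 CPM in WT, and 6 of the 9 genes did not pass (median log2 fold change -0.09, and 0.05 under raw library totals). Whether a different make-up of the shoots has a part in any result below was not tested, and in whole shoots fewer cells of a type and less RNA per cell cannot be told apart.

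The difference between the genotypes reached most of the expressed genome. In all, 15562 of 26112 loci (59.6%) passed an adjusted p of 0.05, 7820 (29.9%) higher in osdreb2b and 7742 (29.6%) lower. The called loci had a median absolute log2 fold change of 1.13. At least 2-fold changes were found for 4522 loci (17.3%) that were higher and 4251 loci (16.3%) that were lower, and at least 8-fold changes for 666 loci higher and 959 lower. Falls thus outnumbered rises among large changes, and at 32-fold or more the counts were 256 loci higher and 361 lower. These are fitted changes, which depend on the default prior count of the fit where a group is at 0 counts. The 3 osdreb2b libraries did not overlap the 3 WT libraries at 18290 loci (70.0%), with osdreb2b above WT at 9188 (35.2%) and below it at 9102 (34.9%). These shares are the background against which each group of genes is read, and the share called rose with the level of a locus.

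**Figure D2:**
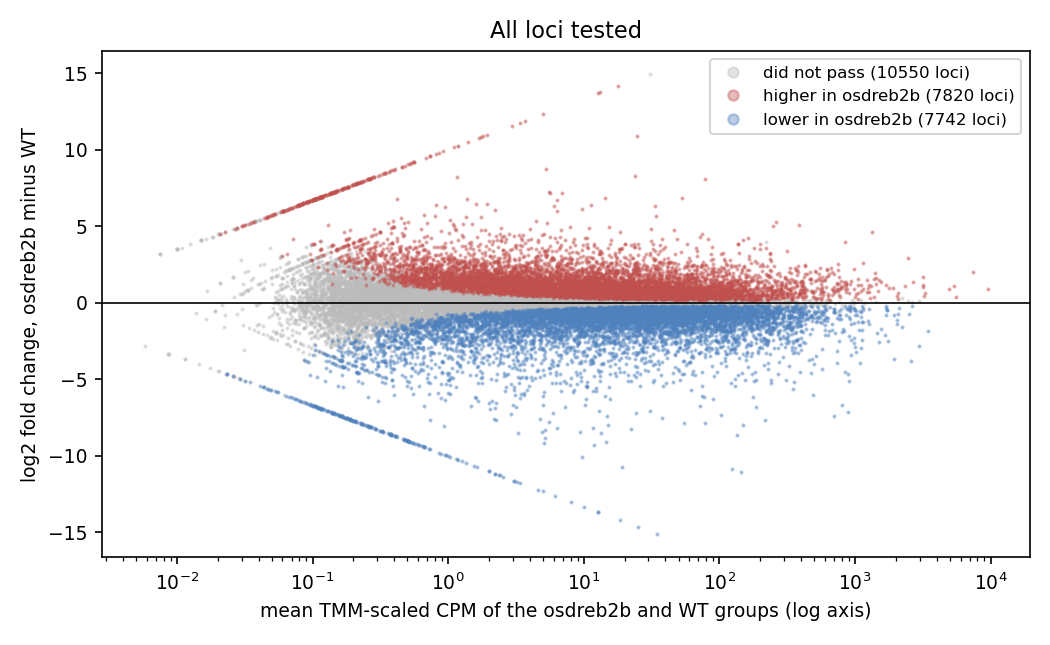
Each point is 1 of the 26112 loci tested, with the mean CPM of the groups on a log axis and the log2 fold change of osdreb2b over WT. The 7820 loci called higher and the 7742 called lower spread over the whole range of levels; the straight lines at the left are loci at 0 counts in all libraries of 1 group, whose fitted change depends on the prior count.

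Loci with high counts were called more often, and more of them were lower than higher in the middle of the range. Among loci under 1 CPM on average, 27.3% were called, and among the 95 loci at 1000 CPM or more, 92.6%. Between 1 and 10 CPM, 35.9% of 8459 loci were higher and 24.7% lower. Between 100 and 1000 CPM the order was turned, with 33.1% of 2232 loci higher and 51.6% lower. At 1000 CPM or more, 47.4% were higher and 45.3% lower. By chromosome the share of loci higher in osdreb2b ran from 28.4% on chromosome 2 to 32.1% on chromosome 11, and the share lower from 23.0% on chromosome 11 to 34.1% on chromosome 2.

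**Figure D3:**
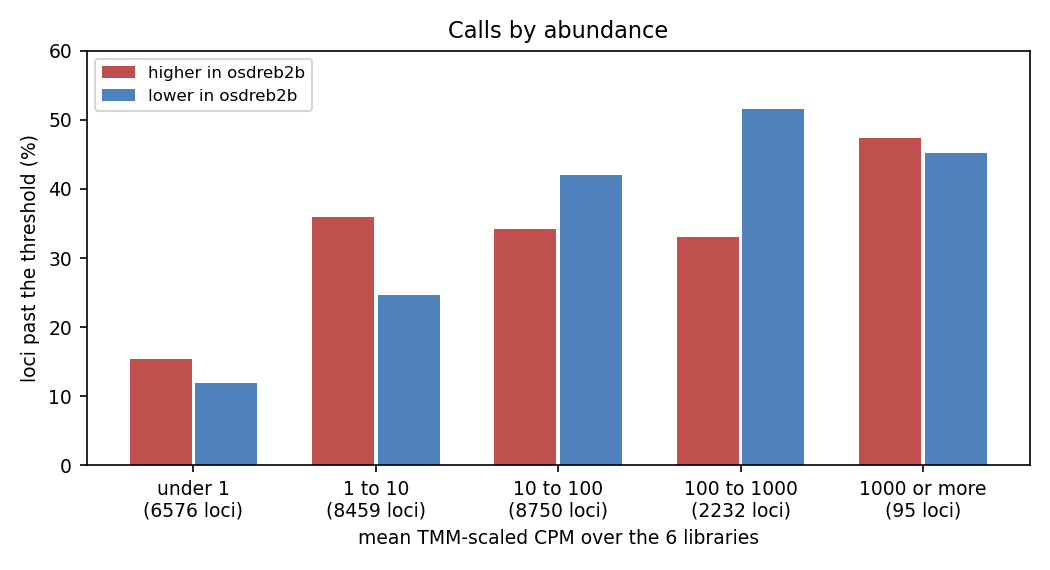
Percent of loci past the threshold, higher (left bar) and lower (right bar) in osdreb2b than in WT, by mean CPM over the 6 libraries. Lower calls exceed higher ones between 10 and 1000 CPM, and higher calls exceed lower ones under 10 CPM.

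Some loci were counted in 1 genotype only. With 0 counts in every library of one group and at least 1 CPM in every library of the other, 19 loci were counted only in osdreb2b and 40 only in WT. The named locus with the highest level among these, LOC_Os03g07930, had 0 counts in all 3 osdreb2b libraries, against 68.8, 69.1 and 71.3 CPM in WT, a level at least 1500-fold lower in osdreb2b if 3 counts per library are taken as the floor. LOC_Os02g29520 likewise had 0 counts in osdreb2b, against 50.02, 49.2 and 51.2 CPM in WT. In the other direction, LOC_Os07g06834 had 35.7, 35.6 and 36.7 CPM in osdreb2b, against 0 counts in WT, at least 691-fold higher by the same floor. LOC_Os02g53240 had 25.9, 24.9 and 28.8 CPM in osdreb2b, against 0 counts in WT. The loci quoted in this paragraph are in none of the gene lists used below, and names for them were not looked up. Of the 40 counted only in WT, 10 were at 0 counts in all ossro1c libraries too, and none reached 1 CPM in all of them. Of the 19 counted only in osdreb2b, 7 reached 1 CPM in every ossro1c library and 6 were at 0 counts in all of them. The 40 were spread over 10 chromosomes, with 8 on chromosome 12, and the 19 over 11 chromosomes.

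Gene groups were then read from 37 lists of rice genes. Of 462 listed loci, 309 carry a name that the reference table places on the same chromosome and within 1 Mb of the position estimated for the identifier. Of these, 286 were tested. Each position was interpolated from the reference positions of other listed names, so the pairings were not checked independently of each other. Of the 286, 112 were higher in osdreb2b, 111 lower and 63 did not pass. That is 78.0% called, against 59.6% of all loci, 76.2% of loci between 10 and 100 CPM and 84.7% of those between 100 and 1000 CPM, so a list with about that share called is like other loci of its level. Unless stated otherwise, the counts below are for these members, and the median log2 fold change of a list is to be read beside that of all 26112 loci, 0.03. Neighbouring copies within a tandem cluster cannot be told apart by such a check and may share reads. This holds for the DREB1 genes of chromosome 9, the small heat shock genes of chromosome 3, OsJAZ9 to OsJAZ11, the RAB16 genes, LOX8 with LOX9, CHT1 with CHT3 and the RBCS genes. RBCS2, RBCS3 and RBCS4 all matched a single gene of the reference table, and the loci listed as HSP17.4 and HSP17.9A matched another, yet each is counted as a named member.

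**Figure D4:**
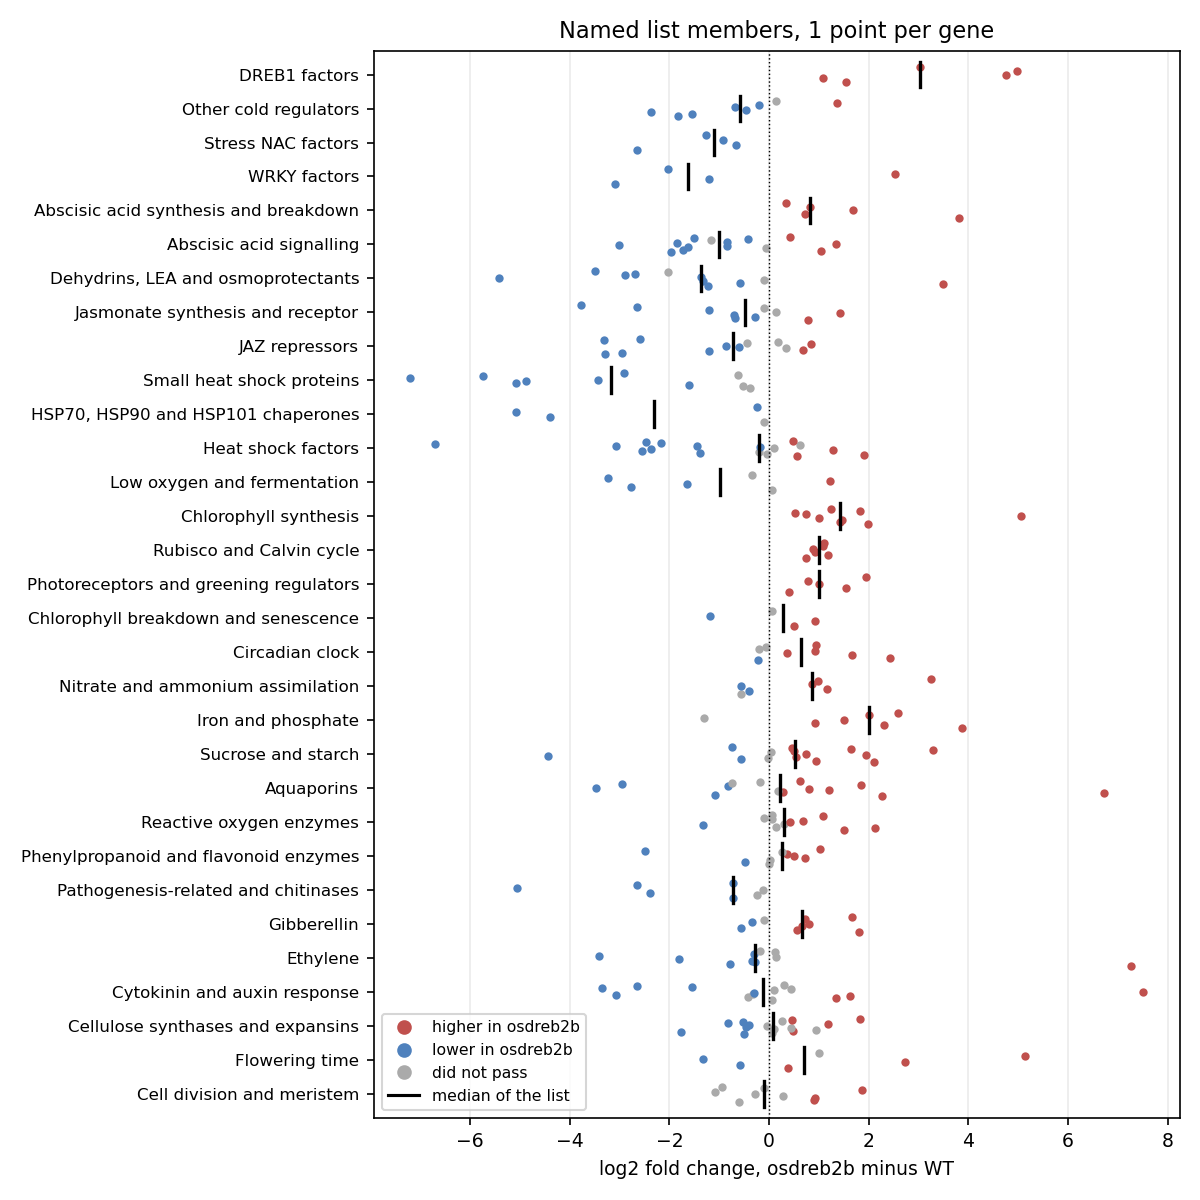
Log2 fold change of osdreb2b over WT for the named members of 31 lists, 1 point per gene, with the median of each list as a vertical bar. Points for chlorophyll synthesis, Rubisco and the Calvin cycle, photoreceptors and DREB1 factors all lie right of 0, and those for stress NAC factors and small heat shock proteins all lie left of it.

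The DREB1 factors, activators of cold-responsive genes, were higher in osdreb2b at 5 of 5 members tested, with a median log2 fold change of 3.03. OsDREB1B (LOC_Os09g35010) had 91.7, 81.7 and 94.7 CPM in osdreb2b, against 3.18, 3.47 and 3.26 CPM in WT. Its tandem neighbour OsDREB1A (LOC_Os09g35030) had 117.5, 119 and 129.7 CPM in osdreb2b, against 15.04, 15.3 and 14.5 CPM in WT (3.03, SE 0.14, adjusted p = 3.9e-10), and OsDREB1H (LOC_Os09g35020) had 15.7, 14.7 and 15.5 CPM in osdreb2b, against 0.398, 0.440 and 0.618 CPM in WT. The groups of all 3 genes were far apart, at 8.17-fold for OsDREB1A, 27.0-fold for OsDREB1B and 31.4-fold for OsDREB1H. The remaining members were low: OsDREB1C averaged 4.61 CPM in osdreb2b and 2.18 CPM in WT, and OsDREB1G averaged 3.26 CPM in osdreb2b and 1.11 CPM in WT. OsDREB1F did not pass the filter on low counts. The summed level of the list ran from 222 to 248 CPM in osdreb2b and from 21.4 to 22.8 CPM in WT.

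Regulators of cold responses outside the DREB1 family went mostly the other way, with 6 of 8 lower, 1 higher and 1 not past the threshold. OsMYB4 (LOC_Os04g43680), a MYB activator known for cold tolerance, had 56.3, 64.6 and 61.0 CPM in osdreb2b, against 322, 302 and 321 CPM in WT (-2.38, SE 0.10, adjusted p = 1.4e-10). OsMYB3R-2 (LOC_Os01g62410), a MYB protein with a link to the cell cycle in the cold, had 45.7, 48.3 and 46.0 CPM in osdreb2b, against 166, 164 and 167 CPM in WT, and OsMAPK3 (LOC_Os03g17700), a kinase of the cold pathway, 101, 104 and 108 CPM in osdreb2b, against 308, 305 and 306 CPM in WT. Each of the 3 genes was lower in every osdreb2b library than in any WT library. The locus listed as OsSAP8 with the alias ISAP1 (LOC_Os09g31200), a zinc finger protein of stress responses, was the 1 that was higher. It had 240.5, 231 and 240.1 CPM in osdreb2b, against 89.9, 88.2 and 97.2 CPM in WT. Which of these names matched in the check is not known, so the locus may not be OsSAP8. OsMYBS3 (LOC_Os10g41200), known in rice as a repressor of DREB1 genes, averaged 320.2 ± 10.5 CPM in osdreb2b and 292 ± 1.92 CPM in WT (SD, n = 3 each) without passing the threshold (adjusted p = 0.081). It passed under raw totals, under upper-quartile scaling, on the 6 libraries alone and without ossro1c replicate 3 (adjusted p from 0.0017 to 0.015, the last with the replicate block).

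Stress NAC factors, activators of drought and salt genes, were lower at 4 of 4 members, and at 7 of 7 when listed loci whose names are not in the table are added. OsNAC6 (LOC_Os01g66120) had 287, 254 and 264 CPM in osdreb2b, against 1692, 1669.9 and 1689.6 CPM in WT (-2.65, SE 0.07, adjusted p = 4.3e-12). The fall was 6.28-fold for OsNAC6, 2.40-fold for OsNAC5, 1.91-fold for OsNAC045 and 1.58-fold for OsNAC3. Of the 4 named WRKY factors, which act in defence and hormone signalling, 3 were lower and 1 was higher. OsWRKY24 (LOC_Os01g61080) had 71.5, 73.8 and 71.6 CPM in osdreb2b, against 612, 613 and 623 CPM in WT, and OsWRKY71 (LOC_Os02g08440) had 324, 298 and 330.3 CPM in osdreb2b, against 735, 728 and 725 CPM in WT. OsWRKY76 (LOC_Os09g25060), known as a repressor of defence genes, stood apart from these, with 47.2, 39.9 and 44.3 CPM in osdreb2b, against 8.32, 7.76 and 6.80 CPM in WT.

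Abscisic acid genes split by role. All 5 named genes of its synthesis and breakdown were higher in osdreb2b (median 0.82), while of 14 named signalling genes 9 were lower, 3 higher and 2 did not pass (median -1.0). OsABA8ox1 (LOC_Os02g47470), a hydroxylase that degrades the hormone, had 361, 375 and 389 CPM in osdreb2b, against 27.04, 25.5 and 27.4 CPM in WT, 14.1-fold higher (3.81, SE 0.08, adjusted p = 5e-13). OsZEP (LOC_Os04g37619), the zeaxanthin epoxidase of both the hormone's precursor path and the xanthophyll cycle, had 452, 467 and 472 CPM in osdreb2b, against 143, 145 and 146 CPM in WT. OsNCED3 (LOC_Os03g44380), which cleaves the carotenoid precursor, had 63.6, 59.04 and 71.5 CPM in osdreb2b, against 41.5, 37.01 and 39.6 CPM in WT. With loci whose names are not in the table, the synthesis and breakdown list had 7 of 9 higher and 1 lower.

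Among the signalling genes, SAPK1 (LOC_Os03g27280), an SnRK2 kinase, was 8.10-fold lower, with 17.6, 17.02 and 18.1 CPM in osdreb2b, against 139, 143 and 146 CPM in WT. The clade A phosphatases, which hold SnRK2 kinases inactive without the hormone, were led by OsPP2C06 (LOC_Os01g40094) with 112, 108 and 109 CPM in osdreb2b, against 451, 430.1 and 406 CPM in WT. OsPP2C09 (LOC_Os01g62760) had 80.6, 80.6 and 87.3 CPM in osdreb2b, against 272, 274 and 275 CPM in WT. Both phosphatase genes were lower in each osdreb2b library than in any WT library (-1.97, SE 0.07, adjusted p = 3.8e-11; -1.72, SE 0.07, adjusted p = 2e-10). SAPK4 (LOC_Os01g64970), at 69.8 ± 7.04 CPM in osdreb2b and 72.5 ± 1.88 CPM in WT (SD, n = 3 each), did not pass (adjusted p = 0.60). The transcription factor gene OsbZIP23, named after its values were seen, averaged 39.9 CPM in osdreb2b and 123 CPM in WT, a log2 change of -1.62.

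Dehydrins, late embryogenesis abundant proteins and enzymes of osmoprotectants, many of them known to be induced by abscisic acid or cold, were lower at 8 of 11 members and higher at 1 (median -1.36). OsLEA3 (LOC_Os05g46480) had 0.195, 0.0656 and 0.271 CPM in osdreb2b, against 8.27, 6.74 and 8.27 CPM in WT, and the dehydrin RAB16A (LOC_Os11g26790) had 0.436, 0.836 and 0.708 CPM in osdreb2b, against 8.60, 6.67 and 7.09 CPM in WT. Neither gene overlapped between the groups, but both were low in all 6 libraries. The trehalose-phosphate phosphatases went in opposite directions. OsTPP1 (LOC_Os02g44230) had 368, 363 and 366 CPM in osdreb2b, against 31.6, 34.95 and 31.3 CPM in WT (3.49, SE 0.08, adjusted p = 1.1e-12), while OsTPP2 (LOC_Os10g40550) had 13.2, 15.05 and 13.5 CPM in osdreb2b, against 106, 103 and 100.4 CPM in WT (-2.89, SE 0.08, adjusted p = 4.9e-12). OsP5CS1 (LOC_Os05g38150), of proline synthesis, averaged 80.5 ± 5.40 CPM in osdreb2b and 86.5 ± 4.28 CPM in WT and did not pass (adjusted p = 0.40).

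Jasmonate genes were lower more often than higher. Of 10 genes of synthesis and perception 6 were lower and 2 higher, and of 12 JAZ repressors, which bind the receptor COI1 and are degraded with the hormone, 7 were lower and 2 higher (medians -0.48 and -0.73). The chloroplast lipoxygenase LOX9 (LOC_Os08g39850) had 55.4, 69.5 and 63.2 CPM in osdreb2b, against 867, 843 and 867 CPM in WT, and its neighbour LOX8 (LOC_Os08g39840) had 112, 114 and 125 CPM in osdreb2b, against 739.8, 742 and 722 CPM in WT. That is a 13.7-fold fall for LOX9 and a 6.29-fold fall for LOX8. OsJAZ12 (LOC_Os10g25290) had 48.03, 45.5 and 53.6 CPM in osdreb2b, against 299, 289 and 300.0 CPM in WT, and OsJAZ11 (LOC_Os03g08320) had 20.9, 17.9 and 16.98 CPM in osdreb2b, against 150, 139 and 142 CPM in WT. OsJAZ13 and OsJAZ9 each fell by 3.30 on the log2 scale. COI1B (LOC_Os05g37690), a receptor of the hormone, stood against these, with 400, 376 and 406 CPM in osdreb2b and 145, 145 and 148 CPM in WT (1.43, SE 0.07, adjusted p = 1.1e-09). OsJAZ4 (LOC_Os09g23660) varied within groups, at 350, 187 and 358 CPM in osdreb2b and 355, 574 and 284 CPM in WT, and did not pass (adjusted p = 0.27).

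Chaperones of the heat shock response were lower as a group. Small heat shock proteins, which hold unfolding proteins in solution, were lower at 7 of 10 members tested and higher at 0 (median -3.17), and their summed level ran from 30.4 to 35.3 CPM in osdreb2b and from 436 to 452 CPM in WT. HSP24.1 (LOC_Os02g52150), which made up most of that sum in WT, had 8.82, 9.43 and 8.54 CPM in osdreb2b, against 294, 302 and 308 CPM in WT. The locus listed as HSP17.9A (LOC_Os03g16020) had 0.256, 0.475 and 0.256 CPM in osdreb2b, against 46.8, 49.0 and 48.3 CPM in WT. Both genes were thus near 0 or below 10 CPM in the mutant libraries and clearly counted in WT. HSP82A (LOC_Os08g39140), an inducible HSP90, had 20.1, 17.4 and 15.4 CPM in osdreb2b, against 601, 597 and 601 CPM in WT (-5.08, SE 0.11, adjusted p = 5.9e-13). HSP101 (LOC_Os05g44340), which dissolves protein aggregates, had 2.43, 2.90 and 2.38 CPM in osdreb2b, against 53.4, 53.9 and 55.5 CPM in WT (-4.40, SE 0.11, adjusted p = 2.7e-12).

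The fall did not extend to every chaperone. BIP1 (LOC_Os02g02410), the HSP70 of the endoplasmic reticulum, averaged 88.9 ± 3.39 CPM in osdreb2b and 94.9 ± 4.58 CPM in WT and did not pass (adjusted p = 0.32). HSP81-2 (LOC_Os09g30412), an HSP90, had 153, 136 and 137 CPM in osdreb2b, against 165, 166 and 170.0 CPM in WT, passing narrowly (-0.23, adjusted p = 0.042). The call was lost under raw totals (adjusted p = 0.37), under upper-quartile scaling (adjusted p = 0.28) and without osdreb2b replicate 2 or 3 or any 1 WT library (adjusted p from 0.081 to 0.15). Heat shock factors, the activators and repressors of these genes, were mixed, with 9 of 17 lower, 4 higher and 4 not past the threshold (median -0.20). HSFA3 (LOC_Os02g32590) had 121, 119 and 120.3 CPM in osdreb2b, against 738, 699 and 675 CPM in WT, 5.86-fold lower, and HSFA4D (LOC_Os05g45410) had 7.51, 7.92 and 8.65 CPM in osdreb2b, against 71.03, 62.2 and 68.0 CPM in WT. HSFB2B (LOC_Os08g43334), of a class known to repress, had 0, 0.0656 and 0.211 CPM in osdreb2b, against 9.60, 10.1 and 9.87 CPM in WT. HSFC1B, named after its values were seen, averaged 187 CPM in osdreb2b and 49.8 CPM in WT.

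**Figure D5:**
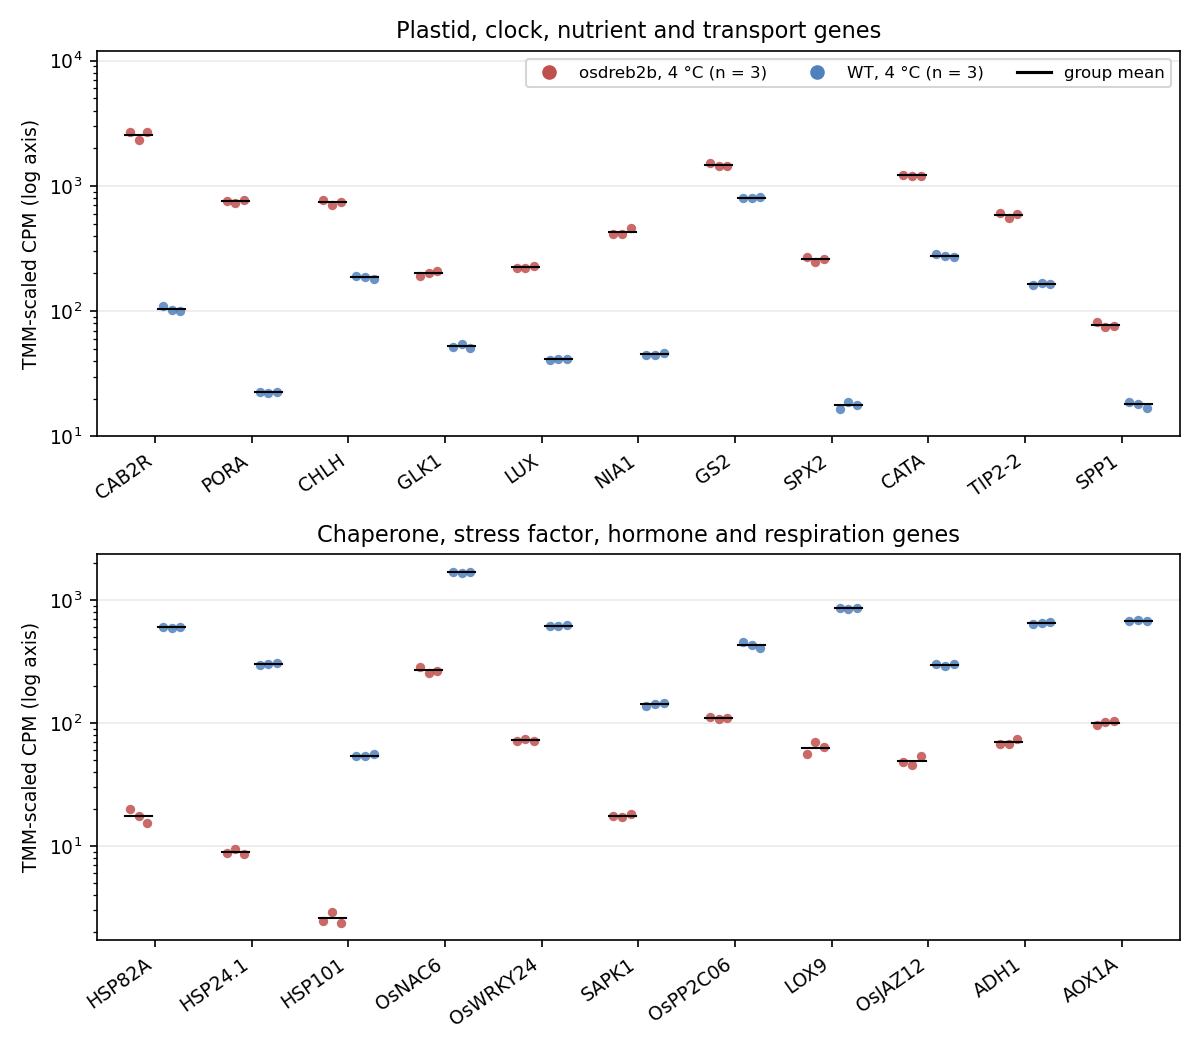
Level of 22 named genes in each library, as TMM-scaled CPM on a log axis, osdreb2b left of WT, with group means as bars (n = 3 each). For every gene of the upper panel the osdreb2b libraries lie above the WT libraries (PORA averages 752 CPM in osdreb2b and 22.5 CPM in WT), and for every gene of the lower panel they lie below (HSP82A averages 17.7 CPM in osdreb2b and 599 CPM in WT). The genes of each panel were picked by hand in a single direction, so that shared direction does not describe their gene groups.

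Several groups of chloroplast genes were higher in osdreb2b. Chlorophyll synthesis enzymes were higher at 9 of 9 named members and at 13 of 13 with the loci added whose names are not in the table (medians 1.43 and 1.29). PORA (LOC_Os04g58200), the light-dependent protochlorophyllide reductase of greening tissue, had 758, 727 and 769.9 CPM in osdreb2b, against 22.5, 22.3 and 22.7 CPM in WT. Its relative PORB (LOC_Os10g35370) had 351, 351 and 342 CPM in osdreb2b, against 98.5, 95.4 and 98.6 CPM in WT, and CHLH (LOC_Os03g20700), a subunit of the chelatase that inserts magnesium, 771, 708 and 745 CPM in osdreb2b, against 189.5, 188 and 182 CPM in WT. The rise was 33.4-fold for PORA, 3.97-fold for CHLH and 3.57-fold for PORB, and the lowest of the list was 0.52 on the log2 scale. The other chelatase subunits rose too, CHLI (LOC_Os03g36540) by 1.47 and CHLD, named after its values were seen, by 1.0.

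Light-harvesting genes, whose proteins bind that chlorophyll, were higher at both named members. With added loci, which include photoprotection loci listed as PSBS1 and PSBS2, 14 of 14 were higher. The summed level of these 14 ran from 17708 to 19620.2 CPM in osdreb2b and from 3506 to 3741 CPM in WT. CAB2R (LOC_Os01g41710) had 2679, 2332 and 2679 CPM in osdreb2b, against 109, 102 and 100.4 CPM in WT, and CAB1R (LOC_Os09g17740) had 2039, 1814 and 2017 CPM in osdreb2b, against 339, 324 and 318 CPM in WT. Replicate 2 was the lowest of the osdreb2b libraries for both genes, and it still lay far above every WT library. Rubisco and Calvin cycle genes, which fix carbon, were higher at 6 of 6 named members and at 13 of 13 with added loci, within a narrower range (named members 0.74 to 1.18). RBCS3 (LOC_Os12g19381) had 7322, 6953 and 7618 CPM in osdreb2b, against 3699.9, 3458 and 3159 CPM in WT. FBA1 (LOC_Os11g07020), a fructose-bisphosphate aldolase, had 6527, 6240.1 and 6708 CPM in osdreb2b, against 3458, 3384 and 3494 CPM in WT. Chlorophyll breakdown was not turned as a group: NYC1 (LOC_Os01g12710), a chlorophyll b reductase, averaged 892 CPM in osdreb2b and 627 CPM in WT, while SGR (LOC_Os09g36200), the magnesium dechelatase of senescing leaves, had 52.45, 56.5 and 56.2 CPM in osdreb2b, against 127, 124 and 125 CPM in WT. RCCR1 (LOC_Os10g25030), a reductase of chlorophyll catabolites, did not pass (9.90 ± 0.446 CPM in osdreb2b and 9.47 ± 0.470 CPM in WT, adjusted p = 0.72).

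Regulators of greening and light were higher with them. All 5 named photoreceptor and greening genes passed in that direction (median 1.01), and with added loci 8 of 11 were higher and 1 lower. GLK1 (LOC_Os06g24070), a transcription factor that activates chlorophyll and antenna genes, had 189.8, 202 and 211 CPM in osdreb2b, against 51.9, 54.8 and 50.5 CPM in WT. PHYB (LOC_Os03g19590), a red light receptor, had 189, 184 and 201 CPM in osdreb2b, against 71.6, 64.4 and 60.4 CPM in WT, while the other phytochrome genes, PHYA and PHYC, rose by 1.01 and 0.78 on the log2 scale. Among 8 named clock genes, 5 were higher and 1, GI, was lower (median 0.64), and with added loci 6 of 11 were higher and 3 lower (median 0.37). GI averaged 1047 CPM in osdreb2b and 1213 CPM in WT, and its call was lost under raw totals and upper-quartile scaling and when a library of osdreb2b other than replicate 2, or any 1 of WT, was left out (adjusted p from 0.059 to 0.46). LUX (LOC_Os01g74020), of the evening complex, had 219, 223 and 229 CPM in osdreb2b, against 41.04, 41.4 and 41.8 CPM in WT (2.43, SE 0.11, adjusted p = 4e-10), and PRR1 (LOC_Os02g40510), a pseudo-response regulator of the evening, had 365, 365 and 367 CPM in osdreb2b, against 115, 115 and 116 CPM in WT. PRR95 (LOC_Os09g36220) had 2469.9, 2553 and 2567 CPM in osdreb2b, against 1339, 1273 and 1324 CPM in WT. The morning gene LHY (LOC_Os08g06110), at 519.9 ± 18.7 CPM in osdreb2b and 546 ± 15.9 CPM in WT, did not pass (adjusted p = 0.54), nor did PRR37 (LOC_Os07g49460; 136 ± 7.24 CPM in osdreb2b and 156 ± 3.34 CPM in WT, adjusted p = 0.062), which passed on the 6 libraries alone and without ossro1c replicate 3 (adjusted p = 0.0021 and 0.0016). The hour at which shoots were taken is not in the labels, and its part in the clock values was not tested.

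The named flowering-time genes were mostly low in these seedlings and went both ways, with 3 of 6 tested higher and 2 lower. With loci added whose names are not in the table, 3 of 7 were higher and 3 lower, the lowest at -3.99. The mean summed level was then 129 CPM in osdreb2b and 1018 CPM in WT. For the named members alone it was 69.5 CPM in osdreb2b and 71.8 CPM in WT. HD1 (LOC_Os06g16370), a photoperiod regulator, had 11.5, 11.9 and 12.9 CPM in osdreb2b, against 2.04, 1.67 and 1.73 CPM in WT. MADS18 (LOC_Os07g41370), a MADS factor of floral transition, had 4.75, 5.07 and 4.02 CPM in osdreb2b, against 12.8, 11.6 and 10.3 CPM in WT. MADS50 (LOC_Os03g03070), a floral activator, averaged 23.02 CPM in osdreb2b and 17.6 CPM in WT, and its call (0.38, adjusted p = 0.030) was lost when any 1 of the osdreb2b libraries, WT replicate 2 or WT replicate 3 was left out (adjusted p from 0.059 to 0.11).

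Genes of nutrient use were higher in several steps. In nitrogen assimilation 4 of 7 named members were higher and 2 lower (median 0.87), and 8 of 13 with added loci. NIA1 (LOC_Os08g36480), a nitrate reductase, had 414, 410 and 463 CPM in osdreb2b, against 44.6, 44.4 and 46.5 CPM in WT (3.25, SE 0.08, adjusted p = 1.2e-12). The plastid enzymes downstream rose as well: GS2 (LOC_Os04g56400), glutamine synthetase, had 1535, 1434 and 1451 CPM in osdreb2b, against 803, 798 and 813 CPM in WT, and FD-GOGAT (LOC_Os07g46460), glutamate synthase, 2314, 2454 and 2289.9 CPM in osdreb2b, against 1181, 1201 and 1195 CPM in WT. Those that fell, the cytosolic GS1;1 and the ammonium transporter AMT1-1, named after their values were seen, changed by -0.40 and -0.57. LOC_Os02g53130, which is on the same list but whose name the table does not hold, was singled out after its values were seen and averaged 155 CPM in osdreb2b and 0.572 CPM in WT.

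Genes of phosphate and iron status were higher at 6 of 7 members tested and lower at 0 (median 2.01). SPX proteins, sensors that restrain the phosphate starvation response and are themselves induced by starvation, led the list. SPX1 (LOC_Os06g40120) had 539, 505 and 529 CPM in osdreb2b, against 134, 132 and 126 CPM in WT, and SPX2 (LOC_Os02g10780) had 268, 247 and 261 CPM in osdreb2b, against 16.5, 18.7 and 17.9 CPM in WT. SPX3 (LOC_Os10g25310) followed at 13.3, 13.5 and 12.8 CPM in osdreb2b, against 2.39, 1.94 and 2.28 CPM in WT. The rises were 4.01-fold, 14.6-fold and 5.99-fold in that order, with no overlap between the groups. YSL2 (LOC_Os02g43370), a transporter of iron bound to nicotianamine, had 6.57, 6.07 and 5.82 CPM in osdreb2b, against 1.33, 1.25 and 1.12 CPM in WT.

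Of the sucrose and starch genes 9 of 14 were higher and 3 lower (median 0.52). SPP1 (LOC_Os01g27880), the last enzyme of sucrose synthesis, had 82.4, 74.6 and 75.9 CPM in osdreb2b, against 19.0, 18.2 and 16.95 CPM in WT, and cyFBP (LOC_Os01g64660), cytosolic fructose bisphosphatase, had 371, 376 and 376 CPM in osdreb2b, against 192, 192 and 199.5 CPM in WT. The sucrose exporter SWEET11 (LOC_Os08g42350) had 24.3, 24.1 and 22.8 CPM in osdreb2b, against 7.86, 7.36 and 7.67 CPM in WT. AMY3D (LOC_Os08g36910), an alpha-amylase known to be induced by sugar starvation, had 16.6, 13.1 and 14.7 CPM in osdreb2b, against 1.45, 1.72 and 1.34 CPM in WT. The phloem loader SUT1 (LOC_Os03g07480), at 135 ± 8.31 CPM in osdreb2b and 138 ± 2.71 CPM in WT, did not pass (adjusted p = 0.75). CIN2, a cell wall invertase, SWEET13 and CIN1, named after their values were seen, fell by 4.44, 0.75 and 0.56 on the log2 scale.

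Aquaporins, channels for water and small solutes, went both ways, and whether those of the vacuole and of the plasma membrane differ was not tested. All 4 vacuolar members were higher: TIP2-2 (LOC_Os06g22960) had 609, 558 and 599 CPM in osdreb2b, against 162, 168 and 164 CPM in WT, TIP1-1 (LOC_Os03g05290) rose 2.30-fold and TIP1-2 (LOC_Os01g74450) 4.84-fold. TIP2-1, named after its values were seen, averaged 0.201 CPM in osdreb2b and had 0 counts in WT. Of the 10 plasma membrane members 3 were higher, 4 lower and 3 did not pass. PIP2-7, the most abundant and also named after its values were seen, averaged 845 CPM in osdreb2b and 545 CPM in WT. PIP2-2 (LOC_Os02g41860) had 29.5, 29.2 and 32.2 CPM in osdreb2b, against 61.2, 67.1 and 63.9 CPM in WT, and PIP2-1 (LOC_Os07g26690; 50.3 ± 1.36 CPM in osdreb2b and 56.6 ± 1.08 CPM in WT) did not pass (adjusted p = 0.13), except on the 6 libraries alone and without ossro1c replicate 3 (adjusted p = 0.015 and 0.011). Over all 14 aquaporins tested, 7 were higher and 4 lower (median 0.22).

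Enzymes that make or remove reactive oxygen had 5 of 11 higher and 1 lower (median 0.30), and 11 of 19 higher and 3 lower with added loci. CATA (LOC_Os02g02400), a catalase, had 1229, 1195 and 1211 CPM in osdreb2b, against 287, 276 and 269 CPM in WT, and RBOHB (LOC_Os01g25820), an oxidase that produces superoxide, had 55.7, 54.1 and 52.6 CPM in osdreb2b, against 21.1, 19.9 and 16.6 CPM in WT. The cytosolic ascorbate peroxidases were opposed, APX2 (LOC_Os07g49400) being 2.12-fold higher and APX1 (LOC_Os03g17690) 2.51-fold lower. Genes of low oxygen and fermentation were lower at 3 of 6 members and higher at 1. ADH1 (LOC_Os11g10480), alcohol dehydrogenase, had 67.4, 67.1 and 73.7 CPM in osdreb2b, against 633, 647 and 663 CPM in WT (-3.22, SE 0.08, adjusted p = 1.9e-12). AOX1A (LOC_Os04g51150), the alternative oxidase of mitochondria known to be induced by cold, had 95.3, 102 and 103 CPM in osdreb2b, against 672, 685 and 679 CPM in WT (-2.76, SE 0.08, adjusted p = 1.1e-11). CIPK15 (LOC_Os11g02240), a kinase that links sugar and low oxygen signals in rice, went the other way at 64.5, 56.7 and 56.7 CPM in osdreb2b, against 26.6, 22.1 and 27.5 CPM in WT, and the list includes PDC2 (LOC_Os03g18220), a pyruvate decarboxylase, which did not pass (22.05 ± 1.17 CPM in osdreb2b and 21.2 ± 2.41 CPM in WT, adjusted p = 0.66).

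Other hormone genes showed large changes at single members. Of 10 ethylene genes 6 were lower and 1 higher. The ACC synthases, which set the rate of ethylene synthesis, were opposed: ACS2 (LOC_Os04g48850) had 2.22, 1.93 and 2.44 CPM in osdreb2b, against 24.2, 19.2 and 27.2 CPM in WT, and ACS5 (LOC_Os01g09700) had 11.6, 9.43 and 11.9 CPM in osdreb2b, against 0.156, 0.0528 and 0 CPM in WT. Of 9 gibberellin genes 6 were higher and 2 lower (median 0.66). KO2 (LOC_Os06g37364), a kaurene oxidase, had 13.2, 14.5 and 13.6 CPM in osdreb2b, against 5.02, 3.91 and 4.10 CPM in WT, and the DELLA repressor SLR1 (LOC_Os03g49990) had 255, 254 and 272 CPM in osdreb2b, against 170.4, 163 and 162 CPM in WT. Of 14 cytokinin and auxin genes 5 were lower, 3 higher and 6 did not pass. RR6 (LOC_Os04g57720), a type A response regulator induced by cytokinin, had 3.82, 2.31 and 3.10 CPM in osdreb2b, against 34.6, 27.4 and 32.3 CPM in WT, and LOG (LOC_Os01g40630), which activates cytokinin, had 516, 498 and 513 CPM in osdreb2b, against 202, 198 and 202 CPM in WT. GH3-8 (LOC_Os07g40290), which conjugates auxin, was 6.28-fold lower.

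Defence and wall genes were less uniform. Pathogenesis-related and chitinase genes were lower at 5 of 7 named members and higher at 0, and with added loci 7 of 10 were lower and 1 higher. CHT1 (LOC_Os06g51060), a chitinase, had 5.70, 4.80 and 5.82 CPM in osdreb2b, against 34.5, 33.1 and 34.5 CPM in WT, and NPR1 (LOC_Os01g09800), the co-activator of salicylic acid responses, had 69.03, 60.2 and 63.3 CPM in osdreb2b, against 102, 102 and 113 CPM in WT. PR10A (LOC_Os12g36880) averaged 3.15 CPM in osdreb2b and 5.20 CPM in WT, and did not pass without osdreb2b replicate 1 or without WT replicate 2 (adjusted p = 0.074 and 0.096). In the phenylpropanoid path 4 of 9 named members were higher and 2 lower, and with added loci 6 of 17 were higher and 5 lower (median 0.008). CHS1 (LOC_Os11g32650), chalcone synthase, had 205, 195 and 214 CPM in osdreb2b, against 99.9, 107 and 95.4 CPM in WT. The coumarate ligase gene 4CL5 (LOC_Os08g34790) had 2.90, 3.89 and 4.17 CPM in osdreb2b, against 19.5, 21.6 and 20.4 CPM in WT.

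Cellulose synthases and expansins had 4 of 16 higher and 6 lower (median 0.09), and 7 higher under raw library totals. CESA9 (LOC_Os09g25490), of the secondary cell wall, had 62.7, 78.6 and 72.4 CPM in osdreb2b, against 124, 130.4 and 125 CPM in WT. The other secondary wall synthases, CESA4 and CESA7, named after their values were seen, were also lower, by log2 changes of -0.51 and -0.53. CESA1 (LOC_Os05g08370; 390.2 ± 11.6 CPM in osdreb2b and 363 ± 1.49 CPM in WT, adjusted p = 0.43) and CESA6 (LOC_Os07g14850; 126 ± 6.44 CPM in osdreb2b and 129 ± 5.13 CPM in WT, adjusted p = 0.77), of the primary wall, did not pass, although CESA1 did on the 6 libraries alone and without ossro1c replicate 3 (adjusted p = 0.017 and 0.02). Among cell division genes 3 of 9 were higher and 0 lower. CDKB2-1 (LOC_Os08g40170), a kinase of mitosis, had 24.5, 28.4 and 28.9 CPM in osdreb2b, against 6.71, 7.57 and 8.20 CPM in WT, and PCNA (LOC_Os02g56130), of DNA replication, averaged 3.23 CPM in osdreb2b and 1.71 CPM in WT. The B-type cyclins CYCB1-1, CYCB2-1 and CYCB2-2 averaged 1.10, 0.687 and 0.206 CPM in osdreb2b, against 1.66, 0.828 and 0.438 CPM in WT, and none of them passed. A call for CYCB1-1 appeared when WT replicate 1 was left out (adjusted p = 0.045).

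Several of these differences were also differences from the other mutant, as the direct test between osdreb2b and ossro1c shows. Its fold changes compare only the mutant groups, but the WT libraries entered the filter, the scaling and the shared spread behind its p-values. In that test 12147 loci (46.5%) passed, 5974 (22.9%) higher in osdreb2b and 6173 (23.6%) lower. Both tests use the same osdreb2b libraries, so their results are given side by side and not as independent evidence. CAB1R was higher in osdreb2b than in ossro1c by 5.05 on the log2 scale (adjusted p = 1.9e-11), PORA by 5.68 (adjusted p = 6.1e-11), and 8 of 9 chlorophyll synthesis genes were higher and 1 lower. All 8 named clock genes were higher (median 1.15), among them LHY by 0.58 and PRR37 by 0.84, which had not passed against WT. With added loci 10 of 11 clock genes were higher and 1 lower.

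Stress factors, jasmonate and wall genes were lower in osdreb2b than in ossro1c. All 4 named stress NAC factors and all 4 named WRKY factors were lower, and so were 10 of 12 JAZ genes (median -1.48), with OsJAZ9 at -5.43 (adjusted p = 7.2e-11). With added loci 11 of 14 WRKY factors were lower and 2 higher. OsWRKY76, higher than in WT, was lower than in ossro1c by -1.62 (adjusted p = 8.4e-08). The cellulose synthase and expansin list, near 0 against WT, had 13 of 16 lower and 0 higher than in ossro1c (median -0.65). The DREB1 genes divided: OsDREB1B was lower than in ossro1c (-1.30, adjusted p = 3.8e-06), whereas OsDREB1A (1.20, adjusted p = 3.6e-06) and OsDREB1H (2.04, adjusted p = 3.9e-06) were higher. Each of these genes was above WT in ossro1c too, by 6.06, 1.83 and 2.93 on the log2 scale in that order. For the small heat shock proteins the mutants showed 3 members higher and 2 lower among 10 (median 0.12), with HSP17.9A at -0.09 (SE 0.27, adjusted p = 0.81) and HSP24.1 at 1.02 (adjusted p = 7.7e-05). ADH1 differed by -0.01 (adjusted p = 0.94) between the mutants, against -3.22 between osdreb2b and WT. Some other large changes had the same direction in ossro1c against WT: OsABA8ox1 (4.47), OsTPP1 (2.78), ACS5 (6.21), HSP82A (-5.75) and HSP101 (-3.26). CAB1R (-2.47) and PORA (-0.62) went the other way in ossro1c, and OsTPP2 (0.01) did not pass there. These genes were picked after their values were seen, and how many loci changed alike in both mutants was not counted.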

How the data were processed

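Per the labels' protocols, total RNA was isolated by TRIzol and made into mRNA libraries with a SMARTER kit. The deposited table holds raw, unscaled counts for each locus. Per the submitters' processing notes the tools included StringTie 2.1.4, HISAT2 2.2.1, fastp 0.23.4 and DESeq2, with no role stated. Neither genome build, annotation nor strand setting is given in the sources used here. Of the deposited columns, 0 were left unused.

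Counts were filtered with filterByExpr by group, normalised by TMM and then modelled by robust quasi-likelihood in edgeR 4.0.16 under R 4.3.3. The model held all 9 libraries with 1 coefficient per group, so that the 3 groups share 1 estimate of the spread. Adjusted p-values are from this edgeR fit, by the Benjamini-Hochberg method over the 26112 loci of a comparison, with a threshold of 0.05, except where another setting is named beside them; those are adjusted over the loci which that setting tested. The SE, which is approximate, was derived from the log2 fold change and its F statistic. OsDREB2B, OsSRO1c and COLD1 were also compared by an exact two-sided permutation test on log2 CPM. The fit was tested on simulated counts, in which 97.5% of 4-fold falls and 97.1% of 4-fold rises were called among loci averaging at least 1 CPM, and 63.2% of 2-fold falls and 89.2% of 2-fold rises. Over all simulated loci 87.0% and 73.5% of 4-fold falls and rises were called, and 54.5% and 67.3% of 2-fold ones. Only a small part of the simulated loci was changed, whereas 59.6% of loci were called in the data. These rates were thus not measured under the conditions of this comparison. Each rate also rests on few changed loci, so gaps between falls and rises may depend on which loci were drawn. Replicates of a group differed by more than counting noise in all pairs (chi-square per degree of freedom from 8.31 to 13.8 within osdreb2b and WT, and from 10.3 to 77.9 within ossro1c, whose replicate 3 stood apart and enters the shared spread), so none was counted as a repeat of another. Intervals on counts were not needed, and floors cover counting error only.

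The comparison and the 37 gene lists were chosen with earlier results of these data known. Loci and names were paired from knowledge of the rice genome and checked by name and position against a RefSeq gene table (assembly ASM3414082v1). Of 462 loci, 309 passed (median distance 0.0186 Mb), 6 lay over 1 Mb away, 16 were found only on another chromosome, and 131 names were absent from the table; the last are counted by identifier only, OsSRO1c excepted, and the 22 contradicted loci were left out. Named genes are the 5 study genes. Added per list were up to 4 called members of at least 5 CPM with no overlap and the largest change, and up to 2 highest uncalled members. The 10 highest and 10 lowest changes over all lists were added too, with the 2 highest and 2 lowest over all loci, and every member of the root, endosperm and cell division lists. Genes named outside this rule are marked in the text or are given to account for a list. Promoter sequences were not used here. Alternatives were other scalings, other filters, DESeq2 1.42.0, the 6 libraries alone, a replicate block and leaving out each library.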

Additional observations from a re-analysis of the deposited data

How the results depend on the processing

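Over all alternatives the number of loci past the threshold ran from 14271 (without WT replicate 2) to 16962 (without ossro1c replicate 3, a library that stood apart from its group), against 15562. With the replicate block it was 15264, with the 6 libraries alone 16716, with both together (chosen after seeing the data) 16280, and with DESeq2 16112. Replicate numbers were shared by the groups, but same-numbered libraries did not deviate together (correlations from -0.01 to 0.02), so the block is an alternative and no pairing was assumed. Raw library totals moved the median of all loci to 0.17 on the log2 scale and upper-quartile scaling to 0.15, against 0.03, so changes under about that size depend on the scaling. The higher share of calls was then 57.2% and 55.9%, against 50.3%. No count of all loci left the range of 1.5 times, and OsDREB2B, OsSRO1c and COLD1 kept their direction and call under all alternatives run. The loci counted in 1 genotype only fell to 7 in osdreb2b and 13 in WT when 5 CPM were required, and came to 21 and 47 with up to 3 counts allowed. Over the named genes, 3449 alternative values kept direction and call, 58 passed where they had not, 39 no longer passed, and 0 changed direction with a call. The 39 concern GI, RGB1, HSP81-2, GLUA1, GLUA2, MADS50 and PR10A. List medians of cell division (-0.09) and of cytokinin and auxin genes (-0.12) changed sign with the scaling (0.05 and 0.02 under raw totals). Levels under 1 CPM rest on few counts, and differences there may be missed.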
